A study of Mus musculus with 16 samples.

Results

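The genes described here encode collagens, laminin chains, nidogens, small leucine-rich proteoglycans and a set of matrix glycoproteins, measured in the lumbar spinal cord of SOD1G93A and wild-type mice on whole mouse genome arrays. They were chosen by gene name, with earlier results of these data known. Every name made of Col, a number, a and a further number was taken, with Col11a2 left out, and so was every laminin alpha, beta and gamma chain. To these came Nid1 and Nid2, the proteoglycans Dcn, Lum, Fmod, Ogn, Omd and Bgn, and the glycoproteins Fn1, Fbn1, Comp, Crispld2, Postn and Sparc. The rule found 65 of the 27962 gene names on the array, with 121 of 41174 probes. They are 39 collagens, 11 laminin chains, 2 nidogens, 6 proteoglycans, 6 glycoproteins and Col4a3bp, whose name fits the pattern although it encodes a ceramide transfer protein and no matrix protein.

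Cord RNA came from mice of the B6SJL background at 40 and 80 days of age. SOD1G93A mice carry many copies of a mutant human SOD1 gene that is expressed throughout the body, and they later develop a motor neuron disease. Their controls were wild-type mice without the transgene, and the methods describe all mice as male and these ages as preclinical. Each of the 4 groups (wild-type 40 days, SOD1G93A 40 days, wild-type 80 days, SOD1G93A 80 days) had 4 arrays labelled as biological replicates. Every array carried a Cy3-labeled cord sample against a Cy5-labeled reference, a pool of neonatal heart, kidney and liver RNA from both genotypes, and the dyes were not exchanged on any array.

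Basement membranes are thin sheets in which laminin trimers and networks of type IV collagen are joined by nidogens. In the spinal cord they surround every blood vessel and underlie the pia mater. Fibrillar collagens such as types I, III and V form the fibres of the meninges, nerve roots and vessel walls, where fibroblasts make them together with the small leucine-rich proteoglycans that bind the fibres and set their spacing.

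The sequences of a few probes and promoters show what the results below rest on. The 2 Lama2 probes read different exons and gave different values across the arrays, the second Col1a1 probe moved less than the first, and the second Col4a1 probe and the Lamb2 probe carried age differences. In the mm7 (NCBI35) build that the files use, the first Lama2 probe, A_51_P191865, lies at chr10:26736609-26736668. The other Lama2 probe, A_52_P652859, is placed at chr10:26743094-26745104, a span of 2011 bases for a probe of 60, so it crosses at least an intron. The Col1a1 probe A_51_P377094 lies at chr11:95059777-95059836, the Col4a1 probe A_52_P518827 spans 1835 bases at chr8:11167857-11169691, and the Lamb2 probe A_51_P248044 lies at chrUn_random:65260-65319. The files give no strand, and each probe is shown as deposited, in lower case.
Lama2 A_51_P191865: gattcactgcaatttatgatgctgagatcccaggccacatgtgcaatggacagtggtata
Lama2 A_52_P652859: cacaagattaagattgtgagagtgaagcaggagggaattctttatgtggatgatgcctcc
Col1a1 A_51_P377094: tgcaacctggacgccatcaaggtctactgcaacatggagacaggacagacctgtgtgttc
Col4a1 A_52_P518827: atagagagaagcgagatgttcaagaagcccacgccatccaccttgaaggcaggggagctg
Lamb2 A_51_P248044: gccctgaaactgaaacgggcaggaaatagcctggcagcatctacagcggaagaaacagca

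The promoters of Nid1, Col1a2, Ogn and Crispld2 are shown because Nid1 gave the clearest age difference, Ogn the largest spread between arrays and Crispld2 the clearest genotype difference at 40 days, with Col1a2 as an example of the fibrillar collagens. They are the 250 bases before the start of the transcript on the plus strand, from RefSeq on GRCm38.p6. Nid1 is at chr13:13437352-13437601, Col1a2 at chr6:4505368-4505617, Ogn at chr13:49607765-49608014 and Crispld2 at chr8:119992188-119992437. Capitals mark the CCAAT box, the TATAAA box and the GGGCGG box on either strand. The capitals in Ogn hold the TATAAA box on both strands, which overlap.
Nid1: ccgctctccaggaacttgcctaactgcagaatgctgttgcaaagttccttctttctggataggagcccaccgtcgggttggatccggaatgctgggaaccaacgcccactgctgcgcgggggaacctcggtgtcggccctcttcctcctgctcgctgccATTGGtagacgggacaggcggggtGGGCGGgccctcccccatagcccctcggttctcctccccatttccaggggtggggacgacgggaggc
Col1a2: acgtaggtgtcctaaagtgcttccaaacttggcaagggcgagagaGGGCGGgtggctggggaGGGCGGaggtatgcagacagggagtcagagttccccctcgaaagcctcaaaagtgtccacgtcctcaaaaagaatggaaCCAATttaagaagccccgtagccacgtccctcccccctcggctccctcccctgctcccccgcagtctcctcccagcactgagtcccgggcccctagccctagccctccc
Ogn: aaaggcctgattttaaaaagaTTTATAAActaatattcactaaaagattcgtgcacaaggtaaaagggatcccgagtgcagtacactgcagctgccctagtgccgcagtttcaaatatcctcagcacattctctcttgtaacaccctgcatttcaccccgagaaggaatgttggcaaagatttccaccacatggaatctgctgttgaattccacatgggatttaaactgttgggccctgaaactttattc
Crispld2: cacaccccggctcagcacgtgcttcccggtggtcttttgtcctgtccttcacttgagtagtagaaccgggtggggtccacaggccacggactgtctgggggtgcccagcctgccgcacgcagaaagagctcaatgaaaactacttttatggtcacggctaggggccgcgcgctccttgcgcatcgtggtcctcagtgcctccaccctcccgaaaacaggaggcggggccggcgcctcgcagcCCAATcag

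Of the 65 genes, 46 had a promoter in the RefSeq table, with 51 start sites in all. CCAAT was found in 29.4% of these 51 promoters against 33.8% of all 32851, TATAAA in 11.8% against 12.4%, and GGGCGG in 47.1% against 32.7%, over the same 250 bases. Nid1 and Col1a2 each hold CCAAT and GGGCGG, and Crispld2 holds CCAAT alone. Ogn holds TATAAA and neither of the others. Col4a1 on the minus strand and Col4a2 on the plus strand start at positions 11312826 and 11312805 of chromosome 8. They run in opposite directions, and by these positions each start lies within the other transcript.

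The values below are log2 ratios of the cord sample to the reference, given as the mean ± SD of the 4 arrays of a group (n = 4). A negative ratio says only that the probe was brighter in the reference. Differences are between group means on the log2 scale, ± the standard error from limma, and a member is called here where limma's p, before any adjustment, was under 0.05, as in the methods. Printed beside it are the p adjusted by Benjamini-Hochberg over all probes tested and, for called members, the two-sided p of an exact permutation test of the group means. Each gene is represented by its brightest probe that passed a filter on signal, and the members are compared between arrays, never with each other. The filter was passed by 56 of the 65 genes, with 71 probes of the 21953 that passed on the whole array. Col10a1, Col12a1, Col17a1, Col28a1, Col4a5, Col9a1, Lama1, Lamb3 and Lamc3 did not pass it. The smallest p an exact permutation test of 4 against 4 arrays can give is 0.0286.

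Between 46.1% and 55.3% of all probes, and 60% to 86.2% of the members, were well above background in Cy3 on an array. Both lowest shares were those of the fourth wild-type array at 40 days, which also had the most outlier spots (301). The constant of 50 units added to each signal makes the differences of dim probes smaller than they are. The 4 arrays with the same replicate number shared a slide, and each group held the same position on all 4 slides, so that effects of position on the slide are confounded with the groups and cannot be told apart from them. Nothing beyond the word biological says that the samples came from separate mice, although the methods count animals per group.

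Some arrays stood apart in the members and in markers of cells that lie around the cord, and the results need to be read with them in view. Each marker list is given on an array as its median gene, expressed relative to that gene's average of 16 arrays. For meningeal and perivascular fibroblasts (18 of 24 genes past the filter), that median was lowest in the fourth wild-type array at 40 days (-0.44) and the third SOD1G93A array at 40 days (-0.36), and highest in the first wild-type array at 80 days (0.37). For Schwann cells and nerve roots (12 of 13 genes), the same 2 arrays at 40 days were again the lowest, at -0.42 and -0.44, whereas the other wild-type arrays at 40 days had 0.37, 0.54 and 0.51. The summed Cy3 signal of the nerve root markers ranged from 19585 to 79093 in wild-type mice at 40 days and from 15839 to 36668 in SOD1G93A mice at 40 days. The sums at 80 days lay between 17687 and 30676 (wild-type) and between 16398 and 31986 (SOD1G93A). For the fibroblast markers the summed signal ran from 26642 to 38243 and from 19247 to 32854 at 40 days, and from 23672 to 43350 and from 20093 to 28302 at 80 days, in wild-type and SOD1G93A mice in turn. No gene of either list was below background on every array. Microglial and macrophage markers (12 of 14 genes) were high in the third wild-type array (0.60) and the fourth SOD1G93A array (0.92) at 80 days. Skeletal muscle markers reached 2.82 in the second SOD1G93A array at 40 days and 1.31 in the second at 80 days. They were also high in wild-type mice, at 0.76 in the third array at 40 days and 0.84 in the first at 80 days. The fourth SOD1G93A array at 80 days had 0.82. Cartilage and bone markers passed the filter for 3 of 17 genes. In tissue of mixed cells, fewer cells of a type and less RNA per cell cannot be told apart.

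**Figure D1:**
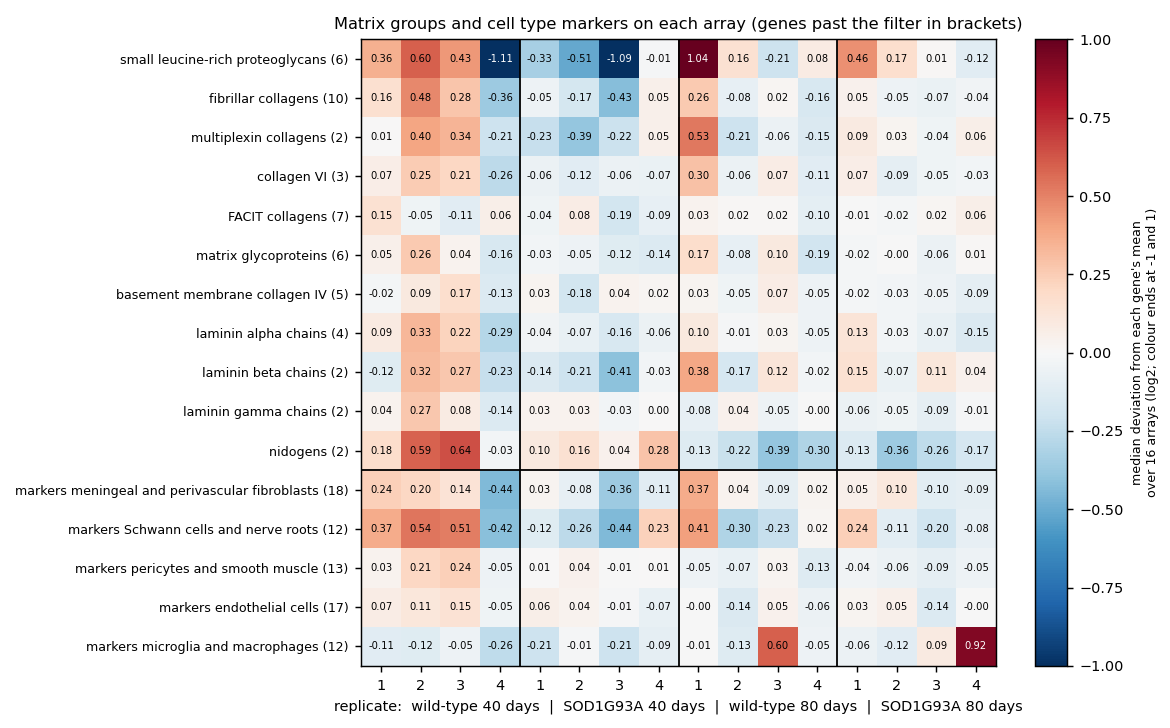
Heat map of the median deviation (log2, from the mean over all 16 arrays) of each group of members by role and of each marker list, in rows, on each array, in columns ordered by group and replicate. The proteoglycan row runs from -1.11 in the fourth wild-type array at 40 days to 1.04 in the first wild-type array at 80 days, and the fibroblast and nerve root rows are also low in the former and high in the latter.

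The small leucine-rich proteoglycans varied more between arrays than any other group of members. Their median pooled SD within groups was 0.651 log2 units over 6 genes, against 0.261 for the 10 fibrillar collagens, 0.188 for all 56 members past the filter and 0.111 for all probes past it. Decorin, Dcn, which binds collagen fibrils, had ratios of -1.03, -0.53, -0.62 and -3.47 in wild-type mice at 40 days and -1.81, -2.49, -3.73 and -1.53 in SOD1G93A mice at 40 days. At 80 days they were 0.56, -0.99, -1.64 and -1.06 in wild-type and -0.33, -0.86, -1.37 and -1.65 in SOD1G93A mice. The fourth wild-type and the third SOD1G93A array at 40 days were thus the lowest of all 16, and the groups overlapped in each comparison. Osteoglycin, Ogn, whose promoter is shown above, gave -0.54, 0.36, -0.08 and -4.09 in wild-type mice at 40 days, a 21.8-fold range within the group. In SOD1G93A mice at 40 days it gave -1.72, -2.08, -4.11 and -0.64. At 80 days the wild-type arrays held 0.19, -0.91, -1.49 and -0.73, and the SOD1G93A arrays -0.32, -1.48, -1.33 and -2.00. The range within a group was thus 3.2-fold at 80 days for each genotype and 11.1-fold in SOD1G93A mice at 40 days. Lumican, Lum, which controls the width of collagen fibrils, followed the same order of arrays at 40 days, with -2.16, -1.47, -1.86 and -4.36 in wild-type and -3.14, -3.68, -4.25 and -2.02 in SOD1G93A mice.

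Type I and type III collagen showed the same 2 arrays at the bottom. Col1a1, which encodes the first chain of type I collagen, gave -3.45, -3.02, -3.06 and -5.35 in wild-type and -4.02, -4.68, -5.27 and -3.67 in SOD1G93A mice at 40 days. Its partner Col1a2 gave -2.90, -2.45, -2.22 and -4.39 in wild-type and -3.48, -3.95, -4.26 and -2.92 in SOD1G93A mice. At 80 days Col1a2 was -2.71, -3.56, -3.56 and -3.70 in wild-type and -3.09, -3.38, -3.37 and -3.52 in SOD1G93A mice, so the first wild-type array stood above the other 7 of that age. Col3a1, the chain of type III collagen, was -4.15, -3.54, -3.94 and -5.54 in wild-type and -4.64, -5.15, -5.29 and -4.54 in SOD1G93A mice at 40 days. None of the 3 genes was called in a comparison (Col1a2 at 40 days, -0.66 ± 0.443, adjusted p = 0.998; Col1a1, -0.69 ± 0.512, adjusted p = 0.998; Col3a1, -0.62 ± 0.371, adjusted p = 0.998). The second Col1a1 probe, whose sequence is given above, had smaller steps between arrays, from -2.64 to -1.96 in wild-type mice at 40 days, with the fourth array again lowest.

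**Figure D2:**
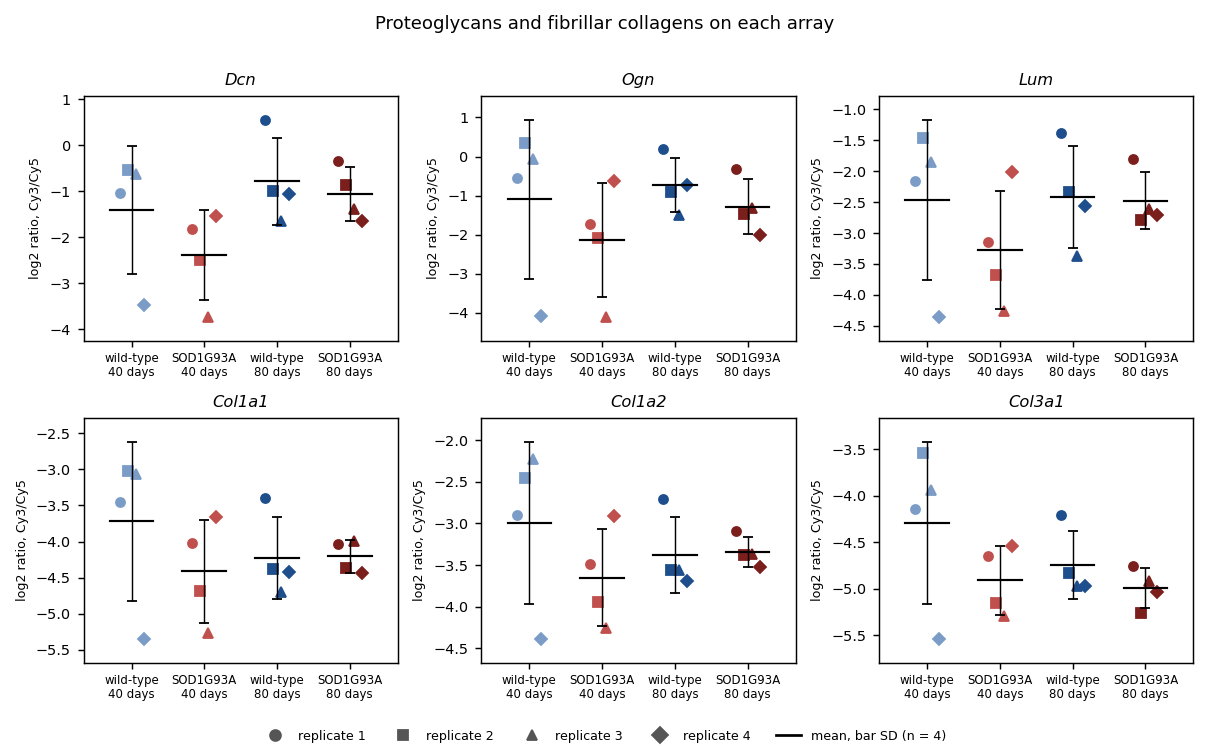
Log2 ratios (cord to reference, vertical axis) of Dcn, Ogn, Lum, Col1a1, Col1a2 and Col3a1 on each array, with the mean ± SD of each of the 4 groups of 4 arrays. The fourth wild-type and the third SOD1G93A array at 40 days lie lowest in their groups for each of the 6 genes, as low as -4.09 and -4.11 for Ogn.

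Of the 5 comparisons, that of the genotypes at 40 days had a larger share of members called than of all probes, and all in a single direction. The members were chosen with earlier results of these data known, so this share is a description. SOD1G93A mice at 40 days had 8 of 54 tested members called (14.8%), all lower than in wild-type mice, or 7 without Omd, which passed the filter only through the wild-type group, against 4.47% of all probes called in that comparison, 2.03% as lower and 2.44% as higher. At 80 days 0 of 56 members passed that threshold in limma, against 6.86% of all probes (3.74% higher, 3.12% lower), and 0 after adjustment, while other settings called up to 5. The slide as a block called 5, all lower, against 7.82% of all probes, and the scanner software's processed signals 2, both lower, against 7.33%. Leaving out replicate 1 of wild-type mice called 3, all higher (Col15a1, Col1a1 and Col1a2), against 8.1% of all probes. Leaving out replicate 1 of SOD1G93A mice called 4, all lower, against 7.97%. Array weights or no normalization within arrays called Col9a2 as higher, against 11% and 10.2% of all probes. In wild-type mice 5 of 56 members were called between the ages, 1 higher (Col24a1, which passed the filter only through the older group) and 4 lower at 80 days (8.93%), against 15.1% of all probes (6.78% higher, 8.29% lower). In SOD1G93A mice 8 of 56 were called, 7 higher and 1 lower at 80 days (14.3%), against 16.9% of all probes (8.64% higher, 8.28% lower). The genotype difference itself changed between the ages for 3 of 56 members, all toward higher values in SOD1G93A mice at 80 days, against 6.68% of all probes (3.11% higher, 3.57% lower), and with the slide as a block for Crispld2 alone. With the main settings, Nid1 was called within each genotype after adjustment over all probes, and no other member in any comparison. The shares of all probes called after adjustment between the ages were 1.58% in wild-type and 1.12% in SOD1G93A mice. No probe of the array passed the adjusted threshold in the comparisons of genotypes or in the test of their change with age. The age comparisons share their arrays with the genotype comparisons, so the counts are not independent.

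The members as a group leaned to lower values in SOD1G93A mice at 40 days. Of 54 members 47 had a negative difference and 7 a positive, with a median of -0.19, against 0.003 over all probes tested. At 80 days 36 of 56 were negative, with a median of -0.03. Between the ages the median was -0.04 in wild-type mice (38 negative, 18 positive) and 0.06 in SOD1G93A mice (17 negative, 39 positive), and the genotype difference moved upward for 47 of 56 members, with a median of 0.13. In the same 40-day comparison 17 of 18 fibroblast markers were negative with a median of -0.16, and 11 of 12 nerve root markers with a median of -0.40. Pericyte and smooth muscle markers had a median of -0.12, with 2 of 13 called as lower. Endothelial markers were negative for 14 of 17, with a median of -0.05 and 1 called as lower. Astrocyte markers went the other way, with 8 of 9 positive, a median of 0.19 and 4 called as higher. Of 9 oligodendrocyte markers 3 were called as higher (median 0.16). Microglial and macrophage markers had 6 negative and 6 positive, with a median of 0.004 and 2 called as higher. Neuron markers were positive for 6 of 7, with a median of 0.09 and 0 called. Of all probes 2.03% were called as lower and 2.44% as higher. All 10 tested skeletal muscle markers were positive, with a median of 0.76 and 0 called by limma. The part of these markers in the result was not tested. The fourth wild-type array at 40 days was the lowest of its group in the fibroblast and nerve root markers. Without it 29 of 54 members were called as lower at 40 days, against 8.79% of all probes. For the change of the genotype difference between ages 14 of 56 were called, against 5.84% of all probes. With the third SOD1G93A array at 40 days left out as well, 29 were called at 40 days, 28 lower and 1 higher, against 6.89% of all probes. The fourth wild-type array was singled out after the data were seen and was also the lowest of its group in members such as Dcn, Ogn and Col1a1. Leaving out such an array raises the wild-type mean and narrows its spread, so these counts are a description and support nothing.

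**Figure D3:**
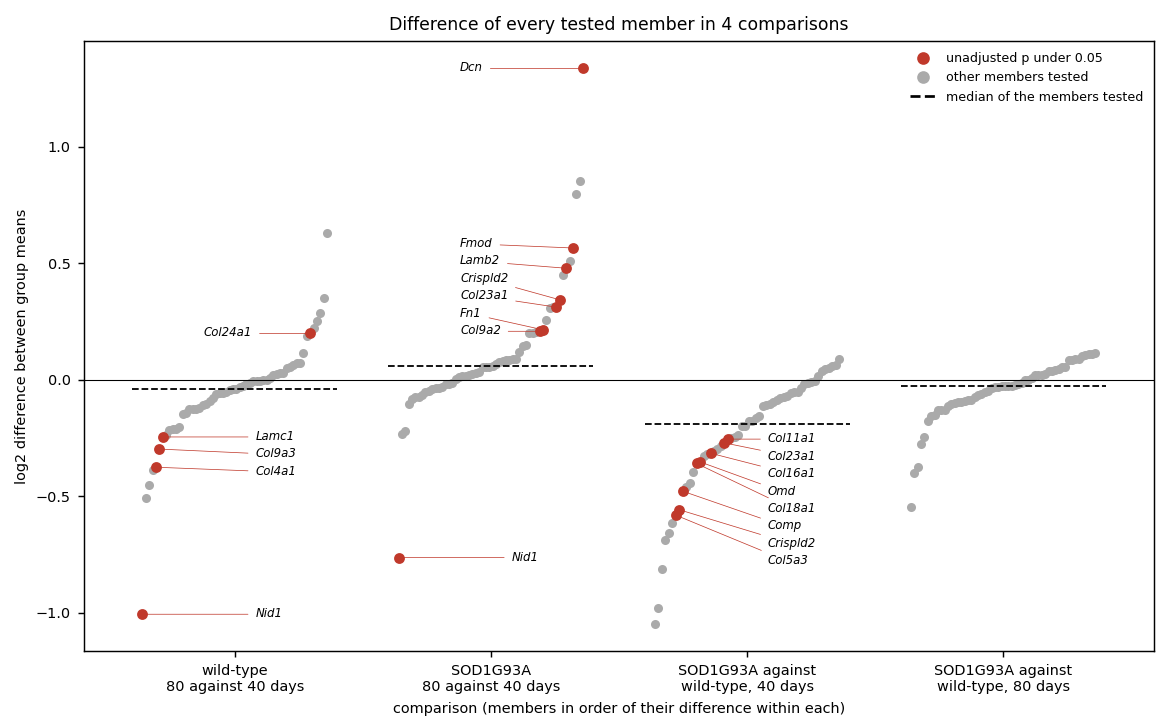
Difference between group means (log2, vertical axis) of each tested member in 4 comparisons, ordered by size within each, with members at an unadjusted p under 0.05 in red and named and the median of the members as a dashed line. At 40 days the 8 called members all lie below 0 and the median is -0.19, whereas no member is called at 80 days.

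Nidogen-1, Nid1, which links laminin to type IV collagen, showed the clearest age difference of all members. Its ratios were -2.36, -2.10, -1.96 and -2.44 in wild-type mice at 40 days and -3.00, -3.20, -3.58 and -3.11 at 80 days. The SOD1G93A arrays gave -2.43, -2.45, -2.56 and -2.05 at 40 days and -2.97, -3.31, -3.14 and -3.14 at 80 days. All 8 arrays of 80 days lay below all 8 of 40 days. Nid1 fell by 1.01 ± 0.136 in wild-type mice, a 2.01-fold decrease (adjusted p = 0.00123, exact permutation p = 0.0286), and by 0.76 ± 0.136 in SOD1G93A mice, a 1.7-fold decrease (adjusted p = 0.00905, exact permutation p = 0.0286). It was lower at 80 days on each of the 4 slides in both genotypes, with differences between -1.62 and -0.63 in wild-type and between -1.08 and -0.54 in SOD1G93A mice. The genotypes did not differ beyond their spread (-0.16 ± 0.131 at 40 days, adjusted p = 0.998, and 0.09 ± 0.122 at 80 days, adjusted p = 0.894), and the 95% interval of the change in that difference ran from -0.16 to 0.65. In wild-type mice Nid1 was the 1 member whose groups did not overlap between the ages, against 7.62% of all probes. Its relative Nid2 differed by -0.20 ± 0.147 (adjusted p = 0.547) in wild-type and 0.02 ± 0.147 (adjusted p = 0.972) in SOD1G93A mice, with ratios of -2.90, -2.35, -2.38 and -3.24 against -2.88, -2.87, -2.82 and -3.11 in wild-type mice at 40 and 80 days.

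The laminin gamma-1 chain, Lamc1, which is part of most laminin trimers, fell in wild-type mice by 0.25 ± 0.0851 (adjusted p = 0.18, exact permutation p = 0.0857). It was -2.26, -2.12, -2.19 and -2.54 at 40 days and -2.63, -2.39, -2.60 and -2.47 at 80 days, so the groups overlapped through the fourth array at 40 days. In SOD1G93A mice its difference was -0.11 ± 0.0851 (adjusted p = 0.56). The beta-2 chain, Lamb2, a laminin of the synaptic basement membrane in muscle, went the other way. It rose by 0.48 ± 0.128 in SOD1G93A mice, a 1.39-fold increase (adjusted p = 0.0802, exact permutation p = 0.0286), from -1.55, -1.51, -1.59 and -1.49 at 40 days to -1.15, -1.15, -0.84 and -1.09 at 80 days. All 4 older arrays were above all 4 younger ones, and the difference was positive on each slide, between 0.36 and 0.75. In wild-type mice Lamb2 was -1.49, -1.47, -1.35 and -1.37 at 40 days and -0.76, -1.45, -0.96 and -1.49 at 80 days, a difference of 0.25 ± 0.128 (adjusted p = 0.368). The change of its genotype difference was 0.22 ± 0.182 (adjusted p = 0.858), so the genotypes were not shown to differ in it.

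The other laminin chains were not called with their main probes. Lama4, an alpha chain of vessel walls, differed by -0.20 ± 0.137 at 40 days (adjusted p = 0.998), and Lamb1-1, now named Lamb1, by -0.40 ± 0.245 (adjusted p = 0.998). Lama2, the alpha chain of basement membranes of muscle, Schwann cells and brain vessels, depended on the probe. Its brighter probe gave -1.60, -1.20, -1.10 and -1.99 in wild-type and -1.70, -1.85, -1.85 and -1.75 in SOD1G93A mice at 40 days (-0.32 ± 0.167, adjusted p = 0.998). The other probe gave -0.92, -0.29, -0.61 and 0.02 in wild-type and -0.94, -1.08, -0.98 and -0.76 in SOD1G93A mice (-0.49 ± 0.172, adjusted p = 0.998, exact permutation p = 0.0571). The fourth wild-type array was the lowest of its group in the first probe and the highest in the second. The second probe also fell with age in wild-type mice (-0.44 ± 0.142, adjusted p = 0.149, exact permutation p = 0.114) and changed in its genotype difference (0.49 ± 0.201, adjusted p = 0.713). Wild-type mice had it well above background on 4 arrays at 40 days and 3 at 80 days, and SOD1G93A mice on 3 at 40 days and 4 at 80 days.

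Type IV collagen passed the filter for 5 of its 6 chains, and 1 was called. Col4a1, a chain of the network found in all basement membranes, was lower at 80 days in wild-type mice by -0.38 ± 0.149 (adjusted p = 0.24, exact permutation p = 0.171), with -3.82, -3.33, -3.40 and -4.15 at 40 days and -3.88, -4.17, -4.07 and -4.08 at 80 days. The second Col4a1 probe also fell in wild-type mice, by 0.28 ± 0.0855 (adjusted p = 0.128, exact permutation p = 0.0857). It gave -2.73, -2.50, -2.45 and -2.87 at 40 days and -2.77, -2.98, -2.87 and -3.04 at 80 days. In SOD1G93A mice the probes gave -0.22 ± 0.149 (adjusted p = 0.482) and -0.16 ± 0.0855 (adjusted p = 0.364), negative on all 4 slides for each. The call of the first probe in wild-type mice was lost without replicate 2 or 3 at 40 days or replicate 2 at 80 days, with differences between -0.34 and -0.26. Col4a2, which joins Col4a1 in that network, differed by -0.06 ± 0.0783 in wild-type mice (95% interval -0.22 to 0.11) and by -0.03 ± 0.0783 in SOD1G93A mice (-0.20 to 0.13). In wild-type mice 6 of 13 pericyte and smooth muscle markers and 4 of 17 endothelial markers were also called as lower at 80 days, with 1 endothelial marker higher, against 8.29% of all probes called as lower. Of 9 oligodendrocyte markers 4 were called as lower as well, 2 of them after adjustment. Their part in the result was not tested. The pericyte markers summed to between 7370 and 9527 units of Cy3 signal in wild-type mice at 40 days and between 6955 and 7402 at 80 days. In SOD1G93A mice they summed to between 7666 and 8612 at 40 days and between 6846 and 7872 at 80 days.

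**Figure D4:**
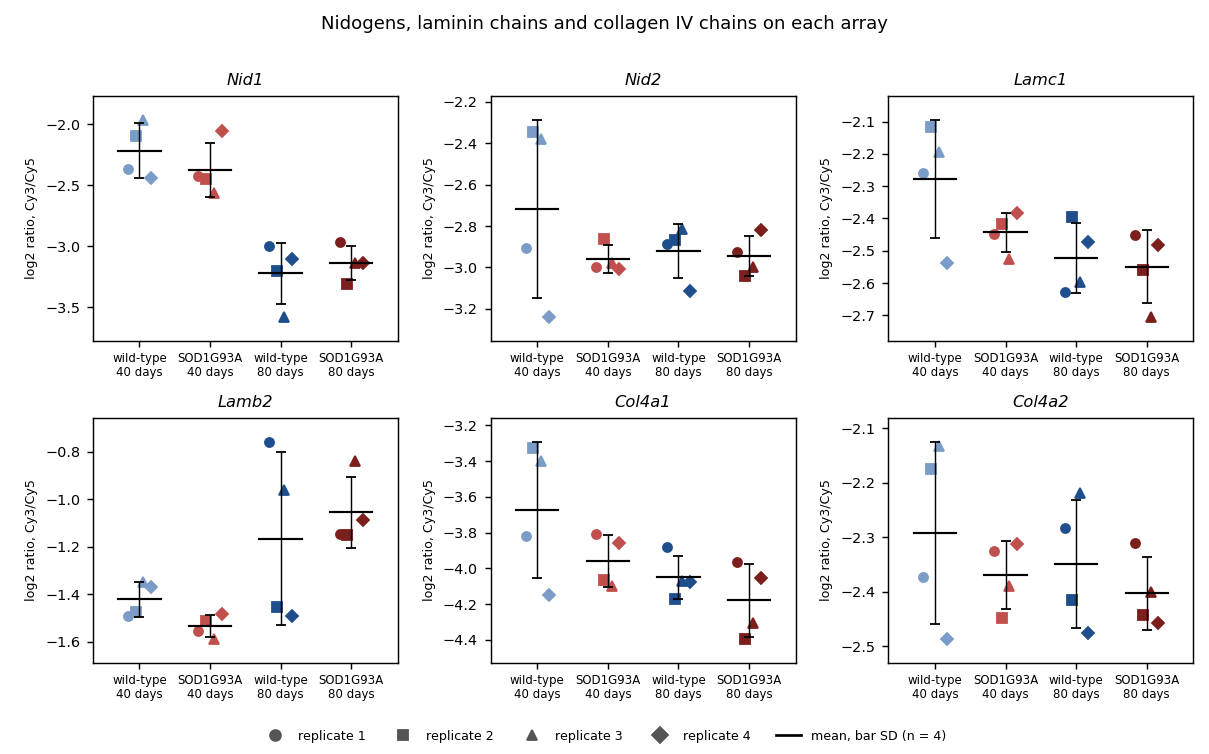
Log2 ratios (cord to reference, vertical axis) of Nid1, Nid2, Lamc1, Lamb2, Col4a1 and Col4a2 on each array, with the mean ± SD of each of the 4 groups of 4 arrays. The 8 arrays of 80 days lie below the 8 of 40 days for Nid1, and the 4 SOD1G93A arrays of 80 days lie above those of 40 days for Lamb2.

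Among the proteoglycans, Dcn and Fmod rose with age in SOD1G93A mice. Dcn rose by 1.34 ± 0.618, a 2.53-fold increase (adjusted p = 0.285, exact permutation p = 0.0571). It was higher at 80 days on 3 of 4 slides, by 1.48, 1.62 and 2.36, and lower by -0.12 on the slide of replicate 4. The call was lost when any of 8 of the 16 arrays was left out, with differences between 0.89 and 1.44, and the 0.89 came without replicate 3 of SOD1G93A mice at 40 days, the lowest of its group. Fibromodulin, Fmod, which binds collagen fibrils like Dcn, rose by 0.57 ± 0.228 (adjusted p = 0.225, exact permutation p = 0.114), from -0.43, -0.42, -0.74 and -0.46 to -0.11, 0.15, -0.48 and 0.65. This call was lost without replicate 3 at 40 days or replicate 2 or 4 at 80 days, with differences between 0.37 and 0.53. In wild-type mice the differences were 0.63 ± 0.618 for Dcn (adjusted p = 0.671) and 0.22 ± 0.228 for Fmod (adjusted p = 0.688). The change of the genotype difference was 0.71 ± 0.874 for Dcn (adjusted p = 0.914), with a 95% interval from -1.15 to 2.56. Lum and Ogn differed by 0.80 ± 0.568 (adjusted p = 0.506) and 0.85 ± 0.818 (adjusted p = 0.637) in SOD1G93A mice. Biglycan, Bgn, was the steadiest of the 6, with differences between -0.11 and 0.09 in all comparisons within an age or a genotype.

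Osteomodulin, Omd, a proteoglycan of bone matrix, was lower in SOD1G93A mice at 40 days. It was 0.36, 0.38, 0.14 and 0.40 in wild-type and -0.08, -0.02, -0.14 and 0.10 in SOD1G93A mice, a difference of the measured means of -0.35. The probe was well above background on all 4 wild-type arrays and not well above background on any SOD1G93A array, so the fold is a bound, at least 1.25-fold lower in SOD1G93A mice (adjusted p = 0.998). Omd passed the filter at 40 days through the wild-type group alone, where it is high, so its call and the separation of its groups are a description and support nothing. That bound sets a mean log2 Cy3 signal of 6.77 on the wild-type arrays against 6.45 for the SOD1G93A arrays. At 80 days Omd was 0.52, 0.15, -0.13 and 0.23 in wild-type and 0.13, 0.92, 0.05 and 0.00 in SOD1G93A mice (0.08 ± 0.203, adjusted p = 0.945). The array at 0.92, the second of SOD1G93A mice at 80 days, was also the highest in skeletal muscle markers at that age, and their part was not tested.

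The fibrillar collagens had negative differences in SOD1G93A mice at 40 days for all 9 tested genes, with a median of -0.33. Of these 2 were called, against 2.03% of all probes called as lower, and 51.5% of all probes had a positive difference. Col5a3, a chain of type V collagen, which starts the assembly of collagen fibrils, was 0.19, 0.91, 0.40 and -0.39 in wild-type and -0.21, -0.41, -0.49 and -0.10 in SOD1G93A mice (-0.58 ± 0.224, adjusted p = 0.998, exact permutation p = 0.0857). The fourth wild-type array lay among the SOD1G93A arrays, and the call was lost without replicate 2 or 3 of either genotype, with differences between -0.54 and -0.37. At 80 days it was 0.27, -0.36, 0.48 and -0.23 in wild-type and 0.13, 0.00, -0.03 and 0.49 in SOD1G93A mice, where the third wild-type and the fourth SOD1G93A array, those with high microglial markers, were the highest of their groups. The genotype difference of Col5a3 changed by 0.69 ± 0.319 between the ages (adjusted p = 0.745), a call lost when any of 10 of the 16 arrays was left out, with values between 0.48 and 0.72, and with the slide as a block. Col11a1, a chain of type XI collagen that assembles with types II and V, was 0.33, 0.77, 0.70 and 0.84 in wild-type and 0.51, 0.46, 0.32 and 0.32 in SOD1G93A mice at 40 days (-0.25 ± 0.106, adjusted p = 0.998, exact permutation p = 0.0857), lower on 3 of 4 slides. The call was lost without replicate 2, 3 or 4 of wild-type mice or replicate 3 or 4 of SOD1G93A mice, with differences between -0.24 and -0.20, and with the slide as a block. At 80 days its difference was -0.13 ± 0.115 and it was not called. Col24a1 was higher at 80 days in wild-type mice by 0.20, but it was well above background on 1 wild-type array at 40 days and 3 at 80 days, so it passed the filter only through the group where it is high, and the value is a description. It was -0.041 with no normalization within arrays. Without replicate 1 or 4 at 40 days, or 1 or 3 at 80 days, it was not called, with differences between 0.14 and 0.18. The other fibrillar collagens tested at 40 days lay between -0.69 (Col1a1) and -0.007 (Col27a1).

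The 3 chains of type VI collagen, a beaded network around cells and vessels, were measured and not called in any comparison. At 40 days they differed by -0.18 ± 0.105 (Col6a1), -0.02 ± 0.0887 (Col6a2) and -0.20 ± 0.138 (Col6a3). Col6a3 was -3.77, -3.71, -3.60 and -4.35 in wild-type and -4.01, -4.08, -4.11 and -4.03 in SOD1G93A mice, so the spread of the wild-type group came mainly from the fourth array.

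Collagens that lie on fibrils, in vessel basement membranes or in cell membranes were called for 3 genes at 40 days, all lower in SOD1G93A mice. They were 1 of 7 tested genes on fibrils, 1 of 2 in vessel basement membranes and 1 of 2 in cell membranes. Of all probes 2.03% were called as lower. Col16a1, a collagen bound to fibrils and fibrillin microfibrils, was lower in SOD1G93A mice at 40 days (-0.32 ± 0.102, adjusted p = 0.998, exact permutation p = 0.0571), with -0.93, -0.69, -1.14 and -1.09 in wild-type and -1.31, -1.26, -1.41 and -1.12 in SOD1G93A mice, and on all 4 slides. At 80 days it was -0.94, -0.78, 0.22 and -1.19 in wild-type and -0.99, -0.94, -1.15 and 0.01 in SOD1G93A mice. The arrays at 0.22 and 0.01 were those with microglial markers at 0.60 and 0.92, whose part was not tested. Col18a1, whose C-terminal fragment is endostatin, was -3.37, -2.97, -2.96 and -3.51 in wild-type and -3.60, -3.75, -3.68 and -3.22 in SOD1G93A mice at 40 days (-0.36 ± 0.15, adjusted p = 0.998, exact permutation p = 0.114). Its second probe gave -0.07 ± 0.138 (adjusted p = 0.998), so the call rests on the first probe, and it was lost without replicate 2 or 3 of wild-type mice or 1, 2 or 3 of SOD1G93A mice, with differences between -0.35 and -0.28, and with the slide as a block. Col23a1, a transmembrane collagen, was -0.03, 0.13, 0.16 and -0.04 in wild-type and -0.21, -0.35, -0.30 and -0.01 in SOD1G93A mice at 40 days (-0.27 ± 0.0839, adjusted p = 0.998, exact permutation p = 0.0857). It rose with age in SOD1G93A mice by 0.31 ± 0.103 (adjusted p = 0.144, exact permutation p = 0.0857), to -0.01, 0.21, 0.21 and -0.02. Both calls held when any 1 array was left out, while the change of its genotype difference (0.32 ± 0.146, adjusted p = 0.744) was lost when any of 10 of the 16 arrays was left out, with values between 0.24 and 0.32, and with the slide as a block. The second Col23a1 probe rose with age in SOD1G93A mice by a like amount (0.29 ± 0.0898, adjusted p = 0.126, exact permutation p = 0.0286) but gave -0.05 ± 0.101 between the genotypes at 40 days (adjusted p = 0.998).

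Type IX collagen, known from cartilage, gave opposite age differences in its 2 measured chains. Col9a2 rose in SOD1G93A mice by 0.21 ± 0.0916 (adjusted p = 0.265, exact permutation p = 0.0571), from 0.32, 0.49, 0.19 and 0.44 to 0.53, 0.70, 0.58 and 0.46, with 0.19 ± 0.0916 in wild-type mice (adjusted p = 0.35). Without replicate 1 or 3 at 40 days, or 2 or 3 at 80 days, Col9a2 was not called in SOD1G93A mice, with differences between 0.15 and 0.20. Col9a3 was lower at 80 days in wild-type mice by -0.30 ± 0.126 (adjusted p = 0.273, exact permutation p = 0.2), with 2.17, 1.62, 1.70 and 2.18 at 40 days and 1.85, 1.71, 1.34 and 1.59 at 80 days, a sign that turned with the processed signals of the scanner software (0.18). It was not called without replicate 1 or 4 at 40 days or 3 or 4 at 80 days, with differences between -0.29 and -0.20. In SOD1G93A mice its difference was -0.23 ± 0.126 (adjusted p = 0.36), the groups did not overlap, and it was called with the slide as a block. Over all members, 5 had groups that did not overlap between the ages in SOD1G93A mice (Nid1, Lamb2, Col5a3, Fn1 and Col9a3), against 12.4% of all probes. Within an age, 2 did at 40 days (Crispld2, and Omd with the limit given above), against 2.82% of all probes, and 0 at 80 days, against 4.29%.

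Among the glycoproteins, Crispld2, a secreted protein of the CAP family expressed by mesenchymal cells, gave the strongest genotype difference at 40 days. It was -0.04, 0.18, -0.20 and 0.30 in wild-type and -0.45, -0.57, -0.61 and -0.36 in SOD1G93A mice, with no overlap. The difference was -0.56 ± 0.107, a 1.47-fold lower level in SOD1G93A mice (adjusted p = 0.998, exact permutation p = 0.0286), and it was negative on each slide, between -0.75 and -0.41. At 80 days it was 0.28, -0.16, -0.30 and -0.43 in wild-type and 0.05, -0.06, -0.25 and -0.36 in SOD1G93A mice, with means of -0.15 in each. The change of the genotype difference was 0.56 ± 0.195 (adjusted p = 0.641). In SOD1G93A mice Crispld2 rose with age by 0.34 ± 0.138 (adjusted p = 0.224, exact permutation p = 0.0571), against -0.21 ± 0.138 in wild-type mice (adjusted p = 0.494). The genotype call at 40 days held when any 1 array was left out, with differences between -0.64 and -0.48. The age call in SOD1G93A mice was lost without replicate 2 or 3 at 40 days or 1 or 2 at 80 days, with differences between 0.28 and 0.32. The fourth wild-type array at 40 days, lowest of its group in the fibroblast and nerve root markers, was the highest of it in Crispld2.

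Comp, a protein that cross-links collagen in cartilage and tendon, was lower in SOD1G93A mice at 40 days (-0.48 ± 0.197, adjusted p = 0.998, exact permutation p = 0.114). It was 0.56, 0.74, -0.24 and -0.08 in wild-type and -0.15, -0.22, -0.18 and -0.38 in SOD1G93A mice. The groups overlapped, 2 of the 4 wild-type arrays were well above background, and the call was lost without replicate 1 or 2 of wild-type mice or any SOD1G93A array, with differences between -0.50 and -0.31. Fibronectin, Fn1, an adhesive protein of plasma and vessel walls, rose with age in SOD1G93A mice by 0.21 ± 0.0865 (adjusted p = 0.225, exact permutation p = 0.0286). The call was lost without replicate 3 or 4 at 40 days or 2 at 80 days, with differences between 0.17 and 0.20, and its second probe gave 0.04 ± 0.0706 (adjusted p = 0.83). Sparc, a matrix-binding protein of astrocytes and endothelium, differed by -0.05 to 0.04 between the groups with its brighter probe, while its second probe was 0.42 in the third wild-type array at 80 days against -1.10, -0.70 and -1.17 in the others. Col4a3bp, the gene that is no matrix gene, was not called with its brightest probe, and a second probe differed by 0.20 at 40 days (adjusted p = 0.998, exact permutation p = 0.0571).

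**Figure D5:**
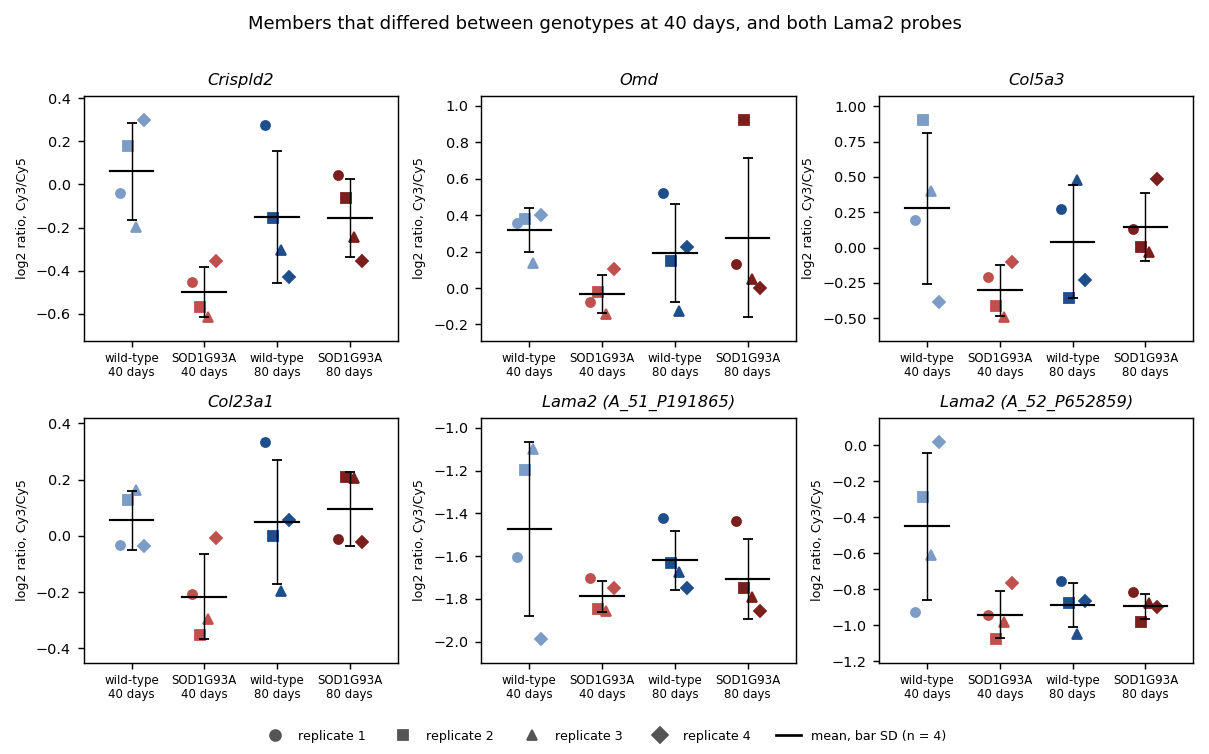
Log2 ratios (cord to reference, vertical axis) of Crispld2, Omd, Col5a3, Col23a1 and both Lama2 probes on each array, with the mean ± SD of each of the 4 groups of 4 arrays. The 4 SOD1G93A arrays of 40 days lie below the 4 wild-type arrays for Crispld2 and Omd, and the fourth wild-type array is at -1.99 with the first Lama2 probe and at 0.02 with the second.

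Other genes of the matrix pathway, from lists of fixed names, are given as counts. Over all probes, 15.1% were called between the ages in wild-type and 16.9% in SOD1G93A mice. Between the genotypes 4.47% were called at 40 days and 6.86% at 80 days. A count near these shares says nothing about its list. Of 21 tested enzymes and chaperones of collagen processing, 3 were called between the ages in wild-type mice (2 higher, 1 lower), and 7 in SOD1G93A mice (3 higher, 4 lower). At 40 days 4 were called between the genotypes (2 higher, 2 lower). P4ha2, a subunit of the prolyl hydroxylase that stabilises the collagen helix, rose in SOD1G93A mice by 0.55 ± 0.127 (adjusted p = 0.0476) and was also called in wild-type mice, by 0.27 ± 0.127 (adjusted p = 0.331), with a change of the genotype difference of 0.28 ± 0.179 (adjusted p = 0.818). Plod2, a lysyl hydroxylase that sets collagen cross-links, fell in SOD1G93A mice by 0.36 ± 0.0653 (adjusted p = 0.0117), and differed by 0.01 ± 0.0705 in wild-type mice (adjusted p = 0.948). The change of the Plod2 genotype difference was -0.38 ± 0.0961 (adjusted p = 0.543). It was measured on 3 wild-type arrays at 80 days, since an outlier spot was dropped.

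Of 21 proteases and inhibitors, 2 were called as lower in wild-type mice at 80 days, 3 were called in SOD1G93A mice (2 higher, 1 lower) and 2 as lower in SOD1G93A mice at 40 days. Ctsk, which encodes the collagen-degrading protease cathepsin K, fell with age in both genotypes, by 0.37 ± 0.085 in wild-type (adjusted p = 0.041) and 0.34 ± 0.085 in SOD1G93A mice (adjusted p = 0.0653). Mmp2, a gelatinase that cleaves type IV collagen, was lower in SOD1G93A mice at 40 days (-0.29 ± 0.0875, adjusted p = 0.998). Among 25 receptors, 7 were called in wild-type mice (1 higher, 6 lower), 5 in SOD1G93A mice (4 higher, 1 lower), and 2 at each age between the genotypes. The shares of all probes to set beside both lists are 15.1% and 16.9% between the ages in wild-type and SOD1G93A mice. Between the genotypes they are 4.47% at 40 days and 6.86% at 80 days. The integrin subunit Itgb3 fell with age by 0.29 ± 0.0492 in wild-type (adjusted p = 0.00553) and 0.40 ± 0.0492 in SOD1G93A mice (adjusted p = 0.000609). Itgb5 rose in SOD1G93A mice by 0.55 ± 0.128 (adjusted p = 0.0484), against 0.18 ± 0.128 in wild-type mice (adjusted p = 0.541). The change of its genotype difference was not called, so its rise was not shown to differ between the genotypes. At 40 days Itgb5 was 1 of the 2 receptors called between the genotypes, before adjustment.

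Of 33 other basement membrane and elastic matrix genes, 5 were called in wild-type mice (2 higher, 3 lower) and 7 in SOD1G93A mice (5 higher, 2 lower), and 1 as lower in SOD1G93A mice at each age. Emilin2, a glycoprotein of elastic fibres, fell in each genotype, by 0.64 ± 0.0902 in wild-type (adjusted p = 0.00182) and 0.65 ± 0.0902 in SOD1G93A mice (adjusted p = 0.00161). Its 8 arrays of 40 days lay between -0.13 and 0.36 and its 8 arrays of 80 days between -0.72 and -0.47. Of 18 genes of TGF-beta signalling and matrix regulation, 1 was called in wild-type mice, 3 in SOD1G93A mice, 2 at 40 days and 1 at 80 days. For both of these lists the shares of all probes called were again 15.1%, 16.9%, 4.47% and 6.86%, in the same order. Smad7, an inhibitor of TGF-beta signalling, fell in wild-type mice by 0.23 ± 0.0474 (adjusted p = 0.0238), against -0.05 ± 0.0474 in SOD1G93A mice (adjusted p = 0.641). The change of the Smad7 genotype difference was called as higher before adjustment and not after it. It was 1 of 18 genes of its list called in that test, against 6.68% of all probes.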

How the data were processed

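Per the labels and methods, total RNA of whole lumbar spinal cord was labeled with Cy3 and hybridised with a Cy5-labeled reference to 4x44K whole mouse genome arrays, 16 in all, scanned and read with Agilent Feature Extraction 9.5.3.1 per the file headers. The authors deposited the scanner intensity of each spot and background with its marks for outliers and for signal well above background. They also deposited a table of log2 values, which follows Cy3 (r from 0.992 to 0.999), with array medians of 6.40 at 40 days and 6.09 to 6.10 at 80 days, so it was used only within an age. Per the methods, the authors filtered the probes and normalized median signals within and between arrays with Agi4x44PreProcess and limma.

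From the median intensities, local backgrounds more than 20 units above their own spot were set to the array's median background (0 to 63 spots an array). Background was corrected with normexp (offset 50), control spots had weight 0, outlier spots (107 to 301 an array) were left out, and loess within and Aquantile between arrays followed in limma 3.58.1 (R 4.3.3). Spots of a probe were averaged. The filter asked for 3 or more arrays of a compared group with Cy3 marked as above background, and for 2 or more measured arrays in each group, which left 21953 probes over 16 arrays, 21338 at 40 days and 21603 at 80 days. Genotypes were compared on the 8 arrays of an age, ages and the change of the genotype difference on all 16, with lmFit and eBayes. Members named are those called in a comparison (up to 10 by size), those listed in the study's tables or supplement (Lama2, Col11a1, Crispld2), chains that share a trimer, nidogens and proteoglycans. Members and lists were chosen with earlier results of these data known. In simulated data of 21767 probes, a change of 0.5 was recovered for 97% of changed probes in wild-type mice between ages, 95% in SOD1G93A mice, 96.5% at 40 days, 97.5% at 80 days and 89% for the change of the genotype difference. The changed probes were drawn at random from all probes, with independent noise. The median SD of all probes past the filter was 0.111, against 0.188 for the members and 0.651 for the proteoglycans, so these rates do not describe the members. With 4 arrays a group, precision is limited by their number. Of the 121 member probes, 87 accessions matched RefSeq, 85 with the same symbol. No column was left without a sample. Figures were drawn with matplotlib 3.10.9 (Python 3.11.15).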

Additional observations from a re-analysis of the deposited data

Results flagged for a closer look

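In 136 groups of 4 arrays tested over the named members, 10 held an array far from the other 3, where chance gives about 1 in 20. Of these, 4 were the first wild-type array at 80 days: Col1a2 at -2.71 (others -3.70 to -3.56), Col6a3 at -3.65 (-4.04 to -3.98), Lama4 at -2.63 (-3.01 to -2.96) and Comp at 1.86 (-0.34 to -0.30). The fourth wild-type array at 40 days stood apart in Dcn at -3.47 (others -1.03 to -0.53) and Fn1 at -2.99 (-2.71 to -2.66), and the third in Omd at 0.14 (0.36 to 0.40) and Lama3 at -0.93 (-1.18 to -1.15). In SOD1G93A mice, the third array at 40 days was low in Fmod at -0.74 (others -0.46 to -0.42), and the second at 80 days was high in Omd at 0.92 (0.001 to 0.13).

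The genotype difference changed between 40 and 80 days for Crispld2 (0.56), Col5a3 (0.69) and Col23a1 (0.32) by the test of the change itself, at an unadjusted p. None of the 3 passed the adjusted threshold.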

How the results depend on the processing

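At an unadjusted p, the calls of Nid1 in both genotypes, Lamc1 in wild-type mice, Lamb2 in SOD1G93A mice and Crispld2 at 40 days were kept under every alternative run for them, and Nid1 ranged from -1.17 to -0.89 in wild-type and -0.86 to -0.61 in SOD1G93A mice. After adjustment, the Nid1 call in SOD1G93A mice was lost with no normalization within arrays and without both second SOD1G93A arrays. Other settings called more members after adjustment between the ages. In SOD1G93A mice array weights called 4, and leaving out the first wild-type array at 80 days called 2. In wild-type mice 4 were called without the fourth wild-type array at 40 days. Without the third SOD1G93A array at 40 days as well, 2 were called. The adjusted shares of all probes are not given for these settings. For the count of called members (5 and 8 between the ages in wild-type and SOD1G93A mice, 8 at 40 days, 0 at 80 days, 3 for the change of the genotype difference), the cause of a different count was not tested. The share of all probes called in the same setting is given in brackets. Local backgrounds as deposited gave 3, 5, 5 and 1 (11.4%, 11.4%, 1.15% and 3.63%), and 80 days kept 0. Agilent's processed signals gave 4 at 40 days (5.61%) and 2 at 80 days (7.33%). Mean signals gave 1 for the change (6.95%), and the authors' deposited values 5 at 40 days (2.52%). No normalization within arrays gave 8 in wild-type mice (18.1%), 29 at 40 days (5.9%), 1 at 80 days (10.2%) and 17 for the change (19.6%). The median of all probes was then -0.12 at 40 days and 0.20 for the change. No filter gave 1 at 80 days (5.86%) and 5 for the change (5.97%). Array weights gave 24 at 40 days (6.35%), 1 at 80 days (11%) and 8 for the change (9.06%). Reversed were Col9a3 in wild-type mice with processed signals (0.18) and Col24a1 in wild-type mice with no normalization within arrays (-0.041).

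Leaving out 1 array gave 3 to 14 in wild-type mice, 4 to 9 in SOD1G93A mice, 5 to 29 at 40 days, 0 to 4 at 80 days and 1 to 14 for the change. The 14, 29 and 14 came without the fourth wild-type array at 40 days, against 15.6%, 8.79% and 5.84% of all probes. Without the first wild-type array at 80 days 8 came for the change, against 7.04%. In wild-type mice 8 came without the first array at 40 days (15.6% of all probes) and 3 without the third at 80 days (13.5%). In SOD1G93A mice 4 came without the third array at 40 days (13.5%) or the second at 80 days (14.4%). At 40 days 5 came without replicate 2 of wild-type mice (3.42%) or replicate 2 or 3 of SOD1G93A mice (3.34% and 3.44%). At 80 days 4 came without the first SOD1G93A (7.97%) and 3 without the first wild-type array (8.1%). For the change 1 came without replicate 2 or 3 of SOD1G93A mice at 40 days (6.12% and 5.5%) or replicate 4 of wild-type mice at 80 days (5.7%). Chosen after seeing the data, leaving out replicate 4 of wild-type and replicate 3 of SOD1G93A mice at 40 days gave 14, 5, 29 and 9 (wild-type, SOD1G93A, 40 days, change). These stood against 14.7%, 14.8%, 6.89% and 5.03% of all probes. Leaving out both second SOD1G93A arrays gave 3 in SOD1G93A mice, 5 at 40 days and 1 for the change, against 11.8%, 3.34% and 5.3%.

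With the replicate number, which is also the slide, as a block, 5, 9, 6, 5 and 1 members were called in the same order as above. The shares of all probes were 15.6%, 16.7%, 4.49%, 7.82% and 6.85%. The 5 at 80 days (Col24a1, Col8a1, Lama4, Lamb1-1 and Ogn) were all lower. Calls of Col11a1 and Col18a1 at 40 days and of Col5a3 and Col23a1 for the change were lost, and Col9a3 was gained as lower in SOD1G93A mice between the ages. The deviations of same-numbered arrays correlated at 0.231, 0.177, 0.151 and 0.0898 in SOD1G93A mice between the ages and between -0.0662 and 0.197 in the other comparisons. Beyond the shared slide, the numbers were not shown to pair the samples in those others. Probes below background on an array limit what can be seen in Omd, Comp and Col24a1.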
